A study of Sus scrofa with 33 samples.

Results

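The heat response of Large White pigs was followed in the pituitary gland on 11 of the 33 microarrays of the study. The methods of the study give the anterior lobe as the part of the gland that was sampled. The members were the arrays titled Large White: 5 from thermoneutral pigs (TN, 24 °C) and 6 from heat-stressed pigs (HS), each array carrying RNA of 1 animal. Titles and temperature fields give 30 °C for the HS pigs, whereas the protocol gives 5 days at 32 °C and the methods of the study give slaughter after 4 or 5 days of it. All animals were castrated males of Sus scrofa, and the remaining 22 arrays came from Creole pigs (11) and from F1 crosses (11) held under the same 2 conditions. Slaughter of the TN animals preceded the rise in temperature and that of the HS animals followed it, so the effects of temperature, of slaughter day and of age cannot be told apart. The study also reported lower feed intake under heat, over all breeds together. Effects of reduced intake cannot be told apart from those of temperature either. By the same methods, each breed was raised as 3 blocks of 4 littermates and housed 3 to a pen, with 2 pens of a breed slaughtered under each condition. Pigs within a group thus shared pens, and littermates occurred in both groups, but the labels used here tie no array to a pen or litter. The arrays were therefore treated as independent, and p-values measure the spread between these animals without that dependence.

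The pituitary links the brain to the thyroid, the adrenal glands, the gonads, growth and lactation. Its anterior lobe holds somatotrophs (growth hormone), lactotrophs (prolactin), corticotrophs (the precursor POMC of adrenocorticotropic hormone), gonadotrophs (LH and FSH) and thyrotrophs (TSH). Pigs sweat little and reduce heat production when it is hot, and thyroid and glucocorticoid signals, both governed by the pituitary, are part of that adjustment. Within single cells, heat is met by heat shock proteins, chaperones that refold damaged proteins. Large White is a fast-growing commercial breed, and Creole is a local Caribbean breed of a warm climate.

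Values are normalized log2 intensities, a relative scale on which 1 unit is a doubling. A level is read within 1 probe only, because brightness differs between probes. On the Large White arrays, 74.1 to 79.6% of spots were well above background, the median intensity was 136 to 164 units, and no spot was saturated. Each of the 11 arrays read all 7 anterior lobe hormone genes well above background, with GH1, POMC and CGA at 18.88 to 19.12. The 13 measured genes of the posterior and intermediate lobes were likewise well above background on all 11 arrays, and so were 13 of 14 genes of muscle, bone and cartilage, so detection alone does not separate these tissues.

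An array stood apart. LW TN 2, a thermoneutral array, read over 1 log2 unit above the other 10 Large White arrays at 340 probes and below them at 42 probes. For each of the other arrays these counts were 1 to 55 and 1 to 21. Its median correlation with the other Large White arrays was 0.983, against 0.99 or more for the rest. The β subunit of thyrotropin, TSHB, read 8.55 on LW TN 2 and 13.69 to 15.56 on all other Large White arrays. Genes picked after their values were seen lay high there: TTR, the thyroid hormone carrier of the choroid plexus and liver, read 11.29 on LW TN 2 and 4.91 to 7.63 elsewhere. PTGDS, prostaglandin D synthase of glia and meninges, read 14.85 on that array. Most results that rest on this array are given with and without it.

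A label was in conflict for another array. LW HS 3 is titled Large White, whereas its breed field says Creole. At 53 probes the other 10 Large White arrays were separated from the 11 Creole arrays without overlap and by more than 1 log2 unit. LW HS 3 lay nearer to Large White at 44 of these probes and nearer to Creole at 9, with a median position of 0.97 on a scale from 0 (Creole mean) to 1 (Large White mean). The array was kept in Large White after its title, and values without it are given where it matters. It also carried the highest interferon level of the 11 arrays, described with that gene list.

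Heat against thermoneutral was tested with limma in a fit of all 33 arrays. None of 45667 probes passed an adjusted p of 0.05 in Large White (0.00%), and the smallest adjusted p was 0.338. With no adjustment, 3104 probes had a p under 0.05 (6.80%), of which 1853 were higher under heat (4.06%) and 1251 lower (2.74%). Differences of single probes are therefore described by their size and spread and are not calls. All 6 HS arrays lay above all 5 TN arrays at 185 probes (0.405%), and below them at 107 probes (0.234%). Taking the brightest probe of each of 10638 named genes, 463 were higher at an unadjusted p under 0.05 (4.35%), 236 were lower (2.22%), and the median difference was 0.02.

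When LW TN 2 was left out, 4 probes passed the adjusted threshold, and they are described at the end. At an unadjusted p under 0.05, 1615 probes were then higher (3.54%) and 923 lower (2.02%), and among the 10638 genes 3.76% were higher and 1.62% lower. Leaving out LW HS 3 gave 1262 probes higher (2.76%) and 988 lower (2.16%), and 2.85% of genes higher and 1.98% lower, with no probe past the adjusted threshold. The share of genes with a positive difference was 56.1% with all arrays, 52.8% without LW TN 2 and 55.7% without LW HS 3. With the scanner's processed signal, scaled to the 75th percentile of each array, the split was 1560 higher and 1630 lower, without the excess of higher probes. Signal and scaling both changed there, and under quantile normalization the split was 1830 and 1269 for the scanner's median intensity and 1850 and 1249 after normexp.

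No hormone gene passed the test. GH1, growth hormone, read 19.12, 18.88, 18.91, 19.01 and 19.12 on the TN arrays and 18.91 to 19.07 on the HS arrays (median 18.99). The groups overlapped fully, and the difference was -0.02 ± 0.05 (SE) in limma, with the sign turned to 0.05 under the processed signal. POMC read 18.95 to 19.12 under TN and 18.97 to 19.07 under HS, a difference of 0.01 (95% interval -0.08 to 0.11, adjusted p = 0.982). CGA, the α subunit shared by TSH, LH and FSH, differed by less than 0.01 (interval -0.11 to 0.10), a value without a sign across scalings. These 3 genes sat at the bright end of a quantile-normalized scale, on which all arrays share the same top values, so a difference in the most abundant transcripts can be narrowed.

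Prolactin, PRL, read 18.88, 18.96, 18.94 and 18.88 on 4 TN arrays, 18.20 on LW TN 2, and 18.83 to 18.94 on the HS arrays. Its difference of 0.11 (adjusted p = 0.858) became -0.04 without LW TN 2. LHB, the β subunit of luteinizing hormone, read 18.03, 17.09, 17.80, 17.62 and 17.35 under TN and 17.44 to 18.21 under HS (median 17.75). It was 0.21 higher (adjusted p = 0.837), or 0.09 without LW TN 2. FSHB, the β subunit of follicle-stimulating hormone, ranged from 15.72 to 17.15 under HS and from 15.50 to 16.73 under TN, and differed by 0.06 (adjusted p = 0.976), or by -0.15 without LW TN 2. In these animals, which were castrated, both gonadotropin genes varied more within each group than between groups.

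TSHB had the widest spread of the hormones. It read 14.92, 14.75, 15.56 and 14.95 on 4 TN arrays, 8.55 on LW TN 2, and 13.91, 13.69, 14.12, 14.58, 14.63 and 14.16 on the HS arrays. With all arrays the difference was 0.44 ± 0.85 (SE, adjusted p = 0.949). Once LW TN 2 was left out it was -0.86 (adjusted p = 0.992), and all 6 HS arrays then lay below the other 4 TN arrays. The sign of the TSHB difference thus rested on 1 array. Within the 3 slides that held both groups but not LW TN 2, HS minus TN was -0.84, -0.96 and -0.79.

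**Figure D1:**
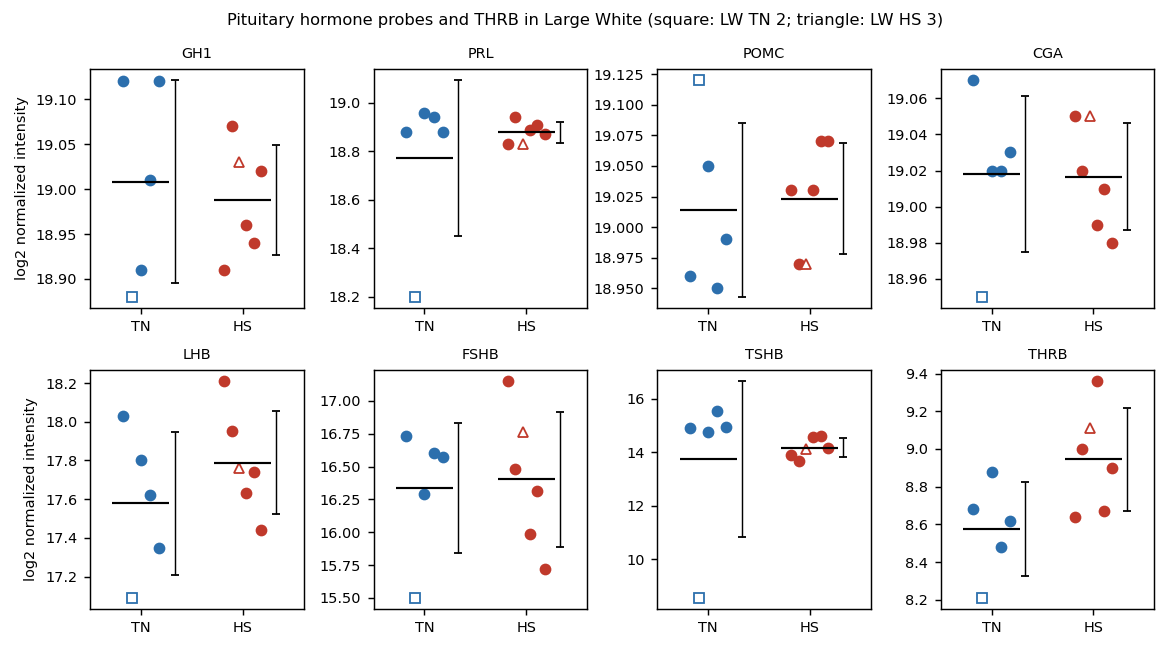
Normalized log2 intensity of the 7 pituitary hormone genes and of THRB on the 5 TN (blue) and 6 HS (red) Large White arrays, each panel with its own scale. Points are animals, lines are group means and error bars are 1 SD. The open square, LW TN 2, lies at 8.55 for TSHB, while the other arrays lie between 13.69 and 15.56.

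Receptors and regulators of the hormone cells changed at no adjusted p. Of 24 listed genes 21 were measured, 13 were higher under heat and 8 lower, with a median of 0.09, against 0.02 over all genes. THRB, the thyroid hormone receptor β that carries negative feedback on TSH, read 8.68, 8.21, 8.88, 8.48 and 8.62 under TN. Under HS it read 8.64 to 9.36 (median 8.95). The groups overlapped, and the mean was 0.37 ± 0.13 (SE) higher, a 1.3-fold difference (limma adjusted p = 0.642). It remained 0.28 higher without LW TN 2 (adjusted p = 0.872).

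DIO2, the deiodinase that makes active thyroid hormone inside the cell, read 11.86, 11.48, 11.85, 11.86 and 11.52 under TN and 11.82 to 12.45 under HS (median 11.94). It was 0.29 higher (adjusted p = 0.725), with all 6 HS arrays above the TN mean. The value was 0.23 once LW TN 2 was left out (adjusted p = 0.977). In the same list, GHRHR, the receptor for growth hormone-releasing hormone, differed by -0.15, CRHR1, the receptor for corticotropin-releasing hormone, by -0.13, and TRHR, the receptor for thyrotropin-releasing hormone, by 0.14 (-0.05 without LW TN 2). The glucocorticoid receptor NR3C1 differed by less than 0.01. None of these 4 reached an unadjusted p of 0.05.

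Transcription factors that specify the hormone lineages were mostly higher. Of 16 measured genes (22 listed), 15 lay higher under heat and 1 lower, with a median of 0.17. Over all genes 56.1% were positive. An unadjusted p under 0.05 was reached by 3 of them, all higher (4.35% of all genes). PITX1, expressed across the anterior lobe lineages, read 14.64 to 14.83 on the TN arrays and 15.18, 15.33, 14.71, 15.06, 15.14 and 14.65 on the HS arrays, of which 5 lay above the TN mean. It was 0.31 ± 0.10 (SE) higher (adjusted p = 0.637). SIX6, a homeobox factor of pituitary progenitors, read 11.58 to 11.99 under TN and 11.87 to 12.19 under HS, a difference of 0.22 (adjusted p = 0.667). Without LW TN 2 it was 0.18, with an unadjusted p above 0.05 (adjusted p = 0.917). POU1F1, the factor of somatotrophs, lactotrophs and thyrotrophs, differed by 0.13 with all arrays and by -0.01 without LW TN 2. On LW TN 2 the list's mean level was -0.27, the lowest of the 11 arrays, and without that array 11 of 16 genes were higher with a median of 0.12.

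The secretory granule showed little difference. Of 14 measured genes 10 were higher and 4 lower, with a median of 0.04, and no gene reached an unadjusted p of 0.05. The median was -0.03 without LW TN 2. CHGA and CHGB, the chromogranins of the granule core, differed by 0.05 and 0.01. PCSK2, the convertase that cuts POMC further in the intermediate lobe, was the lowest member at -0.81 ± 0.47 (SE, adjusted p = 0.787), and at -0.51 without LW TN 2.

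Most glucocorticoid-induced genes gave lower values under heat, and 2 of 12, CEBPD and KLF9, had an unadjusted p under 0.05 (2.22% of all genes were lower at that p). Cortisol from the adrenal acts on pituitary cells through NR3C1, and its target genes follow the hormone within hours. Of 12 measured targets (16 listed) 9 were lower and 3 higher, with a median of -0.14, and the range of the median over 19 settings was -0.18 to -0.10. CEBPD, a transcription factor induced by glucocorticoids and inflammation, read 10.53, 11.05, 10.34, 10.62 and 10.68 under TN. On the HS arrays it read 10.04, 9.26, 10.42, 9.81, 10.04 and 9.92, overlapping TN on 1 array, LW HS 3. The difference was -0.73 ± 0.22 (SE), 1.66-fold (adjusted p = 0.612), and it was -0.63 without LW TN 2 and -0.83 without LW HS 3.

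KLF9, a zinc finger factor induced by both glucocorticoids and thyroid hormone, was represented by 11 probes of different sequence. These fall into 8 sets that share no run of at least 15 bases with each other, so they are not 11 separate readings. Of these, 10 were lower under heat, with 7 at an unadjusted p under 0.05, and the differences ran from -0.49 to 0.09. On the probe O14257 the TN arrays read 9.03, 9.04, 9.02, 9.11 and 9.15 and the HS arrays 8.61, 8.84, 8.87, 8.21, 8.50 and 8.71. Every HS array lay below every TN array, by -0.45 ± 0.10 (SE, adjusted p = 0.575). Leaving out LW TN 2 gave -0.45 again. On the brightest probe the difference was -0.49, and -0.28 without LW TN 2, which read 11.90 there against 10.74 to 10.93 on the other TN arrays.

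Other members of the list were nearer to 0. SGK1, the serum- and glucocorticoid-regulated kinase, gave different values on its 2 probes. The probe O10149 read 7.62 to 8.06 under TN and 7.17 to 7.62 under HS, -0.48 lower, with the groups meeting at 7.62 (adjusted p = 0.575), whereas the brighter probe differed by -0.13 (adjusted p = 0.872). FKBP5, a co-chaperone that dampens the glucocorticoid receptor, differed by -0.14, ZBTB16 by -0.32, DUSP1 by 0.03 and PER1 by 0.11, none at p under 0.05. The DUSP1 value turned to -0.17 without LW TN 2. LW HS 3 carried a list level of 0.19, the same as LW TN 2, whereas the other HS arrays lay at -0.19 to -0.06 and the TN arrays at 0.02 to 0.19.

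Immediate early genes, which respond within minutes to handling and signalling, spread in both directions: 6 of 16 were higher and 10 lower, with a median of -0.03. KLF2, a factor of endothelium under flow, read on its brightest probe 10.24, 11.18, 10.57, 10.64 and 10.60 under TN and 9.90 to 10.52 under HS (median 10.11). Each HS array was under the TN mean, and the difference was -0.51 ± 0.15 (SE, adjusted p = 0.575), or -0.38 without LW TN 2 (adjusted p = 0.781). The 2 other KLF2 probes were at -0.53 and 0.07. FOSL2, an AP-1 subunit, was 0.28 higher (adjusted p = 0.68). NR4A2, an orphan nuclear receptor of the corticotroph response to CRH, was 0.70 ± 0.35 (SE) higher without reaching p 0.05 (adjusted p = 0.744), and FOS, the classic immediate early gene, differed by -0.38 ± 0.66 (SE).

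Clock genes gave a single difference of some size. ARNTL, also called BMAL1, the partner of CLOCK at E-box promoters, read 10.34, 10.54, 9.99, 10.54 and 10.35 under TN. Its HS values were 10.26, 9.64, 9.08, 9.66, 10.02 and 10.05, all below the TN mean though not below every TN array. The difference was -0.57 ± 0.16 (SE), 1.48-fold (adjusted p = 0.575), -0.52 without LW TN 2 and -0.42 without LW HS 3. The 2 other ARNTL probes were at -0.48 and -0.18, 1 of them at an unadjusted p under 0.05. BHLHE40, a repressor at the same promoters, was 0.30 higher (adjusted p = 0.642), with TN at 6.39 to 6.50 and HS at 6.41 to 6.96. RORA, a nuclear receptor that activates ARNTL, was 0.30 higher (adjusted p = 0.717), and 0.24 without LW HS 3, where its unadjusted p was above 0.05. Of 17 measured clock genes 11 were higher and 6 lower, with a median of 0.12, 3 higher and 1 lower at p under 0.05 (4.35% and 2.22% of all genes). Time of day at slaughter is not in the labels, and its part was not tested.

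Heat shock proteins did not move together. In the list of cytosolic chaperones and their cofactors, 33 of 41 genes were measured, 18 were higher and 15 lower, and the median was 0.01 (-0.01 without LW TN 2). Inducible HSP70, labelled HSP70.2, differed by -0.13 ± 0.18 (SE), the constitutive HSPA8 by -0.07, HSP90AB1 by less than 0.01, the small heat shock protein HSPB1 by 0.01, and the heat shock factor HSF1 by 0.07. HSP90AA1, the inducible HSP90, was 0.30 ± 0.18 (SE) higher (adjusted p = 0.802), and 0.44 without LW TN 2, with an unadjusted p under 0.05. HSPA4, a nucleotide exchange factor for HSP70, differed by -0.38 (adjusted p = 0.783), and by -0.54 without that array, again with an unadjusted p under 0.05.

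A single gene of the 33 measured in this list reached an unadjusted p of 0.05, where 4.35% of all genes were higher at that p. PTGES3, the HSP90 co-chaperone p23, read 11.59, 11.42, 11.47, 11.14 and 11.26 under TN and 11.41 to 11.93 under HS (median 11.59). It was 0.26 ± 0.09 (SE) higher (adjusted p = 0.642), with all 6 HS arrays above the TN mean and 2 of its 4 other probes higher at p under 0.05. In mitochondria, 7 of 12 chaperones and proteases were higher and 5 lower, with a median of 0.01. HSPA9, the mitochondrial HSP70, was 0.18 higher (adjusted p = 0.702), and HSPD1, the mitochondrial HSP60, differed by 0.03.

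Genes of protein folding in the endoplasmic reticulum were mostly higher with all arrays. Of 23 measured genes 21 were higher and 2 lower, with a median of 0.09. LW TN 2 had the lowest level of this list, -0.34, and without it 11 genes were higher, 12 were lower and the median was below 0.01 in size. CANX, calnexin, read 14.60 to 14.86 under TN and 14.77 to 15.02 under HS and was 0.16 higher (adjusted p = 0.678). PDIA3, a disulfide isomerase, was 0.23 higher (adjusted p = 0.72), or 0.19 without LW TN 2 (adjusted p = 0.967). HSPA5, the master chaperone BiP, differed by 0.06, and DDIT3, the stress factor CHOP, by -0.06. Without LW TN 2 these values were -0.04 and -0.19.

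Respiratory chain and ATP synthase subunits differed little. Of 66 measured subunits 50 were higher and 16 lower, with a median of 0.03 and a range from -0.24 to 0.26. An unadjusted p under 0.05 was reached by 2 of the 66, both higher, a share below the 4.35% of all genes. NDUFS5 of complex I read 15.09 to 15.28 under TN and 15.20 to 15.44 under HS, a difference of 0.17 (adjusted p = 0.642), and COX5B of complex IV was 0.13 higher (adjusted p = 0.721). Antioxidant genes gave a median of -0.03 over 33 genes, which turned to 0.02 under the processed signal. HMOX1, haem oxygenase, was -0.31 lower (adjusted p = 0.702), and the peroxiredoxin PRDX6 was 0.21 higher (adjusted p = 0.72), both with 5 of 6 HS arrays on that side of the TN mean.

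**Figure D2:**
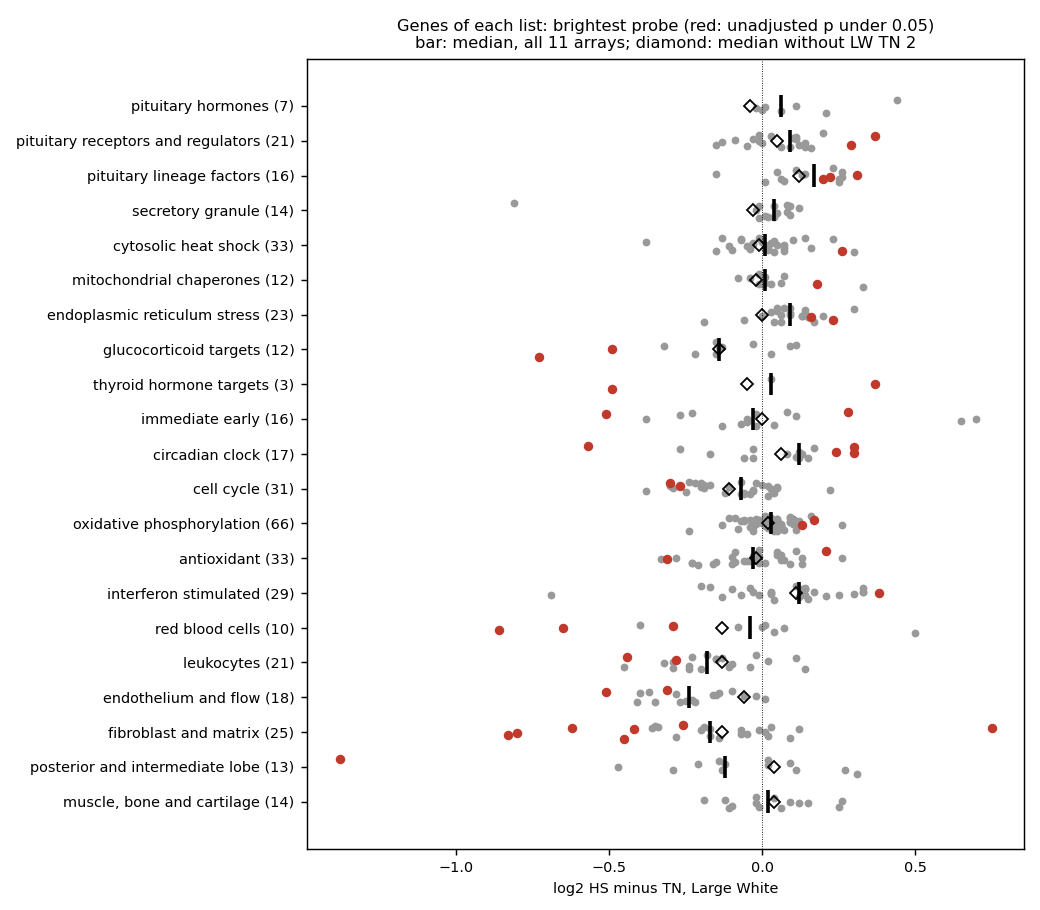
Difference between HS and TN in Large White (log2) for the brightest probe of each gene of 21 lists, with the number of measured genes in brackets. Red points have an unadjusted p under 0.05, bars are medians over all 11 arrays and diamonds medians without LW TN 2. The bar and the diamond lie apart for endothelium and flow (-0.24 and -0.06) and together for glucocorticoid targets (-0.14 and -0.14).

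Most vessel and connective tissue genes gave lower values under heat. In RNA from bulk tissue, fewer cells of a type and less RNA per cell cannot be told apart. Of 18 measured endothelial and flow-response genes 17 were lower and 1 higher, with a median of -0.24 and 2 at p under 0.05 (2.22% of all genes), KLF2 and NOS3. NOS3, endothelial nitric oxide synthase, read 9.70, 10.43, 9.69, 9.84 and 9.72 under TN and 9.39 to 9.85 under HS (median 9.52). It was -0.31 lower (adjusted p = 0.678). PLVAP, the diaphragm protein of fenestrated capillaries, differed by -0.40 (adjusted p = 0.746), and VWF by -0.37 (adjusted p = 0.791).

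The size of this difference rested on 1 array. The mean level of the endothelial list was 0.85 on LW TN 2, -0.07 to -0.03 on the other TN arrays and -0.36 to 0.09 on the HS arrays. The list median without LW TN 2 was -0.06, with 13 genes lower and 5 higher, NOS3 was -0.17 (adjusted p = 0.988), PLVAP -0.18 and VWF -0.06. KLF2 alone of the list then had an unadjusted p under 0.05, where 1.62% of all genes were lower at that p. On the same array the hormone list lay at -1.09 and the posterior and intermediate lobe list at 0.52. The hormone level averages over genes that differed: TSHB read 8.55 there, against 13.69 to 15.56 elsewhere. GH1, POMC and CGA read 18.88, 19.12 and 18.95 on that array. The part of tissue composition in these differences was not tested.

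The median of the matrix genes was below 0 with and without that array. Of 25 measured fibroblast and matrix genes 19 were lower and 6 higher, with a median of -0.17, 6 lower and 1 higher at p under 0.05 (2.22% and 4.35% of all genes). The median was -0.13 without LW TN 2, with 16 lower and 9 higher, 3 lower and 1 higher at p under 0.05 (1.62% and 3.76% of all genes). COL6A3, the α3 chain of collagen VI, read 8.29, 9.58, 8.17, 8.48 and 8.19 under TN and 8.10, 7.97, 7.68, 7.19, 7.62 and 7.71 under HS. The groups did not overlap, and the difference was -0.83 ± 0.25 (SE), 1.78-fold (adjusted p = 0.596). It was -0.57 without LW TN 2 (adjusted p = 0.841), and the 6 other COL6A3 probes ran from -0.72 to -0.04. COL1A1 and COL1A2, the chains of collagen I, were -0.62 (adjusted p = 0.659) and -0.45 (adjusted p = 0.637), and COL3A1 was -0.42 (adjusted p = 0.729). These collagen values include LW TN 2, where the level of the matrix list was 0.50, against -0.07 to 0.10 on the other TN arrays.

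THY1, a surface glycoprotein of fibroblasts and neurons, went the other way. It read 9.27, 9.06, 9.19, 9.66 and 8.73 under TN and 9.45 to 10.28 under HS (median 10.04). It was 0.75 ± 0.29 (SE) higher (adjusted p = 0.659), and 0.72 without LW TN 2. All 6 HS arrays lay above the TN mean, and the 2 other THY1 probes were 0.34 and 0.61 higher.

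**Figure D3:**
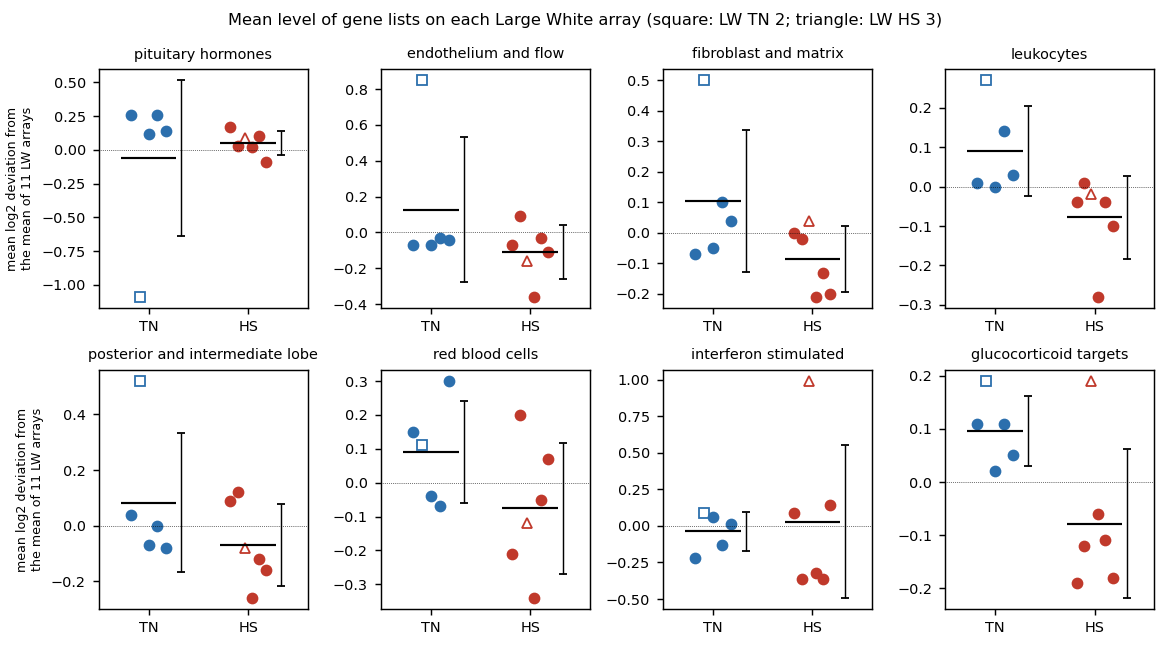
Mean level of 8 gene lists on each Large White array, as the log2 deviation from the mean of the 11 arrays, averaged over the genes of the list. Points are animals (TN blue, HS red), lines are means and error bars 1 SD, with LW TN 2 as a square and LW HS 3 as a triangle. LW TN 2 lies at 0.85 for endothelium and at -1.09 for hormones, and LW HS 3 lies at 0.99 for interferon-stimulated genes.

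Leukocyte genes were lower in 18 of 21 cases, with a median of -0.18. The list level was 0.00 to 0.27 on the TN arrays and -0.28 to 0.01 on the HS arrays. The median was -0.13 without LW TN 2, with 20 genes lower. ITGB2, the β2 integrin of leukocytes, read 8.55, 9.09, 8.66, 9.09 and 8.35 under TN and 8.01 to 8.70 under HS (median 8.16), a difference of -0.44 ± 0.16 (SE, adjusted p = 0.642). NKG7, a granule gene of cytotoxic lymphocytes, was -0.28 (adjusted p = 0.642). PTPRC, which encodes CD45 of all leukocytes, differed by 0.02.

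The 2 brightest haemoglobin probes lay lower under heat. The probe of transcript ENSSSCT00000008741, placed in the haemoglobin list from its annotation, read 16.14, 16.61, 15.66, 15.55 and 16.27 under TN. Under HS it read 14.58, 15.16, 14.55, 15.15, 15.85 and 15.20, so that 5 of 6 HS arrays lay below the lowest TN array. The difference was -0.96 ± 0.37 (SE), 1.95-fold (adjusted p = 0.654), and -0.82 without LW TN 2 (adjusted p = 0.895). HBB, β-globin, read 10.27 to 10.84 under TN and 9.0 to 10.32 under HS, a difference of -0.86 (adjusted p = 0.702), or -0.79 without LW TN 2 (adjusted p = 0.917). A dimmer probe, of ENSSSCT00000016076, was -0.58 (adjusted p = 0.813). The HBE1 probes, well above background on 3 and 4 of 6 HS arrays, were at -0.29 and -0.24, and TC558094 and TC559369 at 0.12 and 0.01.

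Red cell genes other than the globins went in both directions. SLC4A1, the anion exchanger of the red cell membrane, differed by less than 0.01 (0.19 without LW TN 2), and ALAS2, the erythroid enzyme of haem synthesis, by 0.01 (-0.10 without LW TN 2). AHSP, the chaperone of α-globin, differed by -0.40 (adjusted p = 0.839) and CA1, a carbonic anhydrase, by 0.50 (adjusted p = 0.842). CA2, another carbonic anhydrase, was -0.65 (adjusted p = 0.642), or -0.49 without LW TN 2 (adjusted p = 0.917), but it is also expressed by other cells. The list of 10 genes had a median of -0.04. The amount of blood left in each gland is not in the labels, and its part in the globin values was not tested.

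Myelin basic protein gave the largest lower value of the posterior and intermediate lobe list. On MBP probe A_72_P065001 the TN arrays read 12.69, 13.92, 11.97, 12.33 and 11.87 and the HS arrays 11.86, 12.57, 11.14, 10.34, 10.82 and 10.33. The difference was -1.38 ± 0.50 (SE), 2.6-fold (adjusted p = 0.642), with 5 of 6 HS arrays below the TN mean. Of 10 MBP probes 9 were lower, all at p under 0.05, from -1.57 to -0.39, and 1 probe was 0.15 higher. The 10 probes fall into 7 sets that share no run of at least 15 bases with each other. Without LW TN 2, the value of A_72_P065001 was -1.04 (adjusted p = 0.907), and 6 of the 9 kept an unadjusted p under 0.05. Glial genes of the list gave smaller values: GFAP differed by -0.29, S100B by -0.21 and AQP4 by -0.12, and AVP and OXT, the hormones of the posterior lobe, by 0.09 and 0.02. The list median was -0.12 and turned to 0.04 without LW TN 2. The tissue sampled was given as the anterior lobe, and the part of other lobes in each sample was not tested.

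Mitotic genes were lower in 23 of 31 cases, with a median of -0.07 and 2 lower at an unadjusted p under 0.05 (2.22% of all genes). MELK, a mitotic kinase, read 5.99 to 6.49 under TN and 5.72 to 6.19 under HS, -0.30 lower (adjusted p = 0.681). The MELK value was -0.60 with the processed signal and -0.19 with normexp. BIRC5, survivin, read 9.43 to 9.83 under TN and 9.11 to 9.58 under HS, -0.27 lower (adjusted p = 0.702). TOP2A, a topoisomerase of dividing cells, differed by -0.25 ± 0.24 (SE), and MKI67, the proliferation antigen Ki-67, by 0.05. The list median lay between -0.17 and -0.06 over 19 settings. In Creole and F1 pigs the median of the same list was -0.23, with 18 of 31 genes lower at p under 0.05, against 2.89% of all genes there.

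Interferon-stimulated genes depended on LW HS 3. The list level was 0.99 on that array and -0.36 to 0.14 on the other HS arrays, against -0.22 to 0.09 under TN. The median difference of 0.12 (20 of 29 genes higher) was -0.10 without LW HS 3 (5 higher and 24 lower). IFI44, an interferon-induced protein, read 9.70 on LW HS 3 and 8.45 to 8.89 on the other HS arrays, and its difference was 0.38 (adjusted p = 0.702) with that array and 0.22 without it.

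Among genes whose HS arrays all lay above the TN arrays, those of smallest p are described. AKAP9, a large scaffold that anchors protein kinase A at the centrosome and Golgi, had the smallest p of these genes. On its probe O7964 the TN arrays read 8.18, 8.20, 8.20, 8.03 and 8.05 and the HS arrays 8.40, 8.99, 8.80, 8.79, 8.58 and 8.68. The difference was 0.57 ± 0.11 (SE), 1.49-fold (adjusted p = 0.338), and it was 0.59 without LW TN 2 and 0.56 without LW HS 3. With array weights its adjusted p was 0.00811. The 5 other AKAP9 probes ran from 0.01 to 0.36, all higher but none with an unadjusted p under 0.05. The probe at 0.36 had an interval from -0.19 to 0.91, and the probe at 0.19 was 0.22 without LW TN 2, with an unadjusted p under 0.05. The probe and its least different neighbour in the gene are shown because they share no stretch of 15 bases and gave the highest and lowest values of the gene.
AKAP9 O7964 (0.57): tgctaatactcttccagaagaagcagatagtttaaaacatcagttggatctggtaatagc
AKAP9 A_72_P416418 (0.01): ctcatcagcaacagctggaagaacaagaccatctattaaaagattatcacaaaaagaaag

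FLRT3, a leucine-rich repeat membrane protein of cell adhesion, was higher on all 6 of its probes. Its probe A_72_P022736 read 7.02, 6.90, 7.34, 7.15 and 6.98 under TN and 7.35 to 7.75 under HS (median 7.55). It was 0.47 ± 0.12 (SE) higher (adjusted p = 0.575). The 5 other probes were 0.28 to 0.35 higher, 4 of them at p under 0.05, and no FLRT3 probes shared a run of at least 15 bases. Without LW TN 2 the 6 FLRT3 probes were 0.19 to 0.42 higher, 3 of them at an unadjusted p under 0.05. DECR1, a mitochondrial reductase of unsaturated fatty acid oxidation, read 8.56 to 8.72 under TN and 8.77 to 9.32 under HS. It was 0.38 higher (adjusted p = 0.575), and its 3 other probes were 0.20 to 0.31 higher. CYP51, lanosterol demethylase of cholesterol synthesis, was 0.49 higher (adjusted p = 0.575), from 8.30 to 8.72 under TN and 8.85 to 9.21 under HS, and its 3 other probes were 0.11 to 0.30 higher.

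Other genes had fewer probes, or probes of more varied size. SSX2IP, a centrosome and junction protein, was 0.46 higher, with the 2 other probes at -0.45 (itself at an unadjusted p under 0.05) and 0.11. WDR3, a factor of ribosome assembly, was 0.41 higher (adjusted p = 0.575), or 0.65 with the processed signal and 0.30 with normexp. Its 4 other probes were at 0.02, 0.16, 0.35 and 0.37, the last at an unadjusted p under 0.05. Of all 5 probes, 3 were at that p without LW TN 2 and 1 without LW HS 3. PJA1, a ubiquitin ligase, was 0.43 higher and its other probe 0.05, and MAP3K7, the kinase TAK1, was 0.25 higher and its other probe 0.05. PPFIA4, a liprin of the synaptic scaffold, was 0.32 higher and PRKCI, the atypical protein kinase C iota, 0.29 higher, each on a single probe. The PPFIA4 probe was well above background on 3 of 5 TN arrays, and its difference was 0.72 with the processed signal and 0.17 with normexp.

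On the lower side the same rule named 12 genes, among them KLF9, SGK1, COL6A3 and MGP. OSR2, an odd-skipped-related zinc finger factor, read 5.39, 5.61, 5.41, 5.51 and 5.46 under TN and 4.93 to 5.23 under HS (median 5.04). It was -0.41 lower (adjusted p = 0.575), but it was well above background on 4 TN arrays and on no HS array. Against the detection floor the difference was at least 1.18-fold, the log2 value was -1.92 with the processed signal and -0.16 with normexp, and the other OSR2 probe was at 0.07. CYP2C49, a cytochrome P450, read 5.78 to 6.21 under TN and 5.13 to 5.75 under HS, -0.55 lower (adjusted p = 0.575), with its other probe at -0.16. It was well above background on 3 of 6 HS arrays, and the difference was -1.56 with the processed signal and -0.32 with normexp background correction, so its size is uncertain. NRP1, a receptor for semaphorins and vascular endothelial growth factor, read 8.29 to 8.75 under TN and 7.82 to 8.28 under HS, -0.42 lower (adjusted p = 0.626). TTC14, a tetratricopeptide protein, was -0.41 on 1 probe and -0.15 to 0.23 on the 7 others. ACTR8, a subunit of the INO80 remodeller, was -0.29 on 1 probe and -0.17 and 0.19 on the others, and the ubiquitin ligase WWP1 was -0.25 on 1 probe and -0.36 to 0.09 on the 6 others. SLC24A3, a sodium, potassium and calcium exchanger, was -0.34 and SLC38A7, an amino acid transporter, -0.35. The SLC38A7 value was -0.59 with the processed signal and -0.21 with normexp.

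Several genes were read by many probes that all lay on 1 side. SNX14, a sorting nexin that tethers the endoplasmic reticulum to lipid droplets, was higher on all 9 of its probes, from 0.38 to 0.60, each at an unadjusted p under 0.05 (smallest adjusted p = 0.575). The 9 probes hold 8 different sequences, and 6 of these are shown because probes that share bases are not separate readings of the transcript. Capitals mark runs of at least 15 bases that a probe shares with another SNX14 probe of different sequence, and the value in brackets is the log2 difference between HS and TN.
SNX14 A_72_P017111 (0.51): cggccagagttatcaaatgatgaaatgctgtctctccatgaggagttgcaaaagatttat
SNX14 A_72_P583661 (0.44): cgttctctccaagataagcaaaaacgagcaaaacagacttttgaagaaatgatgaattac
SNX14 A_72_P646231 (0.38): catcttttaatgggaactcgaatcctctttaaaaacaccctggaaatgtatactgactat
SNX14 A_72_P622309 (0.49): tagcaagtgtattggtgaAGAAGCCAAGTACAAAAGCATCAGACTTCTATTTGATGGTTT
SNX14 A_72_P592009 (0.51): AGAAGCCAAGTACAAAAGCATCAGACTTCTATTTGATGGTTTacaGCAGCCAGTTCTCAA
SNX14 A_72_P229322 (0.46): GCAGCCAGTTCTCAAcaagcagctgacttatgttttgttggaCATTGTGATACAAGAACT

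The first 3 of these SNX14 probes share no run with another probe, while the last 3 form a chain of overlaps that continues into A_72_P573809 (0.60) and O11494 (0.54), not printed here, and A_72_P491739, at 0.56, repeats the sequence of A_72_P229322. Averaged over the 8 sequences, SNX14 read 10.17, 9.34, 9.45, 10.01 and 10.13 on the TN arrays and 10.15, 10.66, 10.51, 10.31, 10.14 and 10.10 on the HS arrays. The averages overlapped, since LW TN 1 and LW TN 5 lay among the HS arrays and LW TN 2 and LW TN 3 lay lowest. Without LW TN 2 the 9 probes were 0.27 to 0.45 higher, 8 of them at p under 0.05. On probe A_72_P583661 HS minus TN was 0.65, 1.04, 0.22 and 0.00 on the 4 slides that held both groups. On probe A_72_P017111 the same slides gave 0.34, 0.60, 0.67 and 0.46.

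MGP, matrix Gla protein, an inhibitor of calcification made by vessel and connective tissue cells, was lower on all 7 of its probes, from -0.82 to -0.68, each at an unadjusted p under 0.05 (smallest adjusted p = 0.575). The 7 probes fall into 3 sets that share no run of at least 15 bases with each other, so they are not 7 separate readings. A probe in its coding sequence is shown, with capitals for the bases it shares with O11474, the probe of largest difference.
MGP A_72_P762880 (-0.79): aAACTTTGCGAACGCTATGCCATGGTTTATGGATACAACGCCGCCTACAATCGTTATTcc

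On MGP probe A_72_P729368, the brightest, the TN arrays read 14.11, 15.34, 14.00, 14.33 and 14.06 and the HS arrays 13.97, 13.71, 13.93, 13.44, 13.08 and 13.28. Every HS array lay below every TN array, and the difference was -0.80 ± 0.21 (SE), 1.74-fold (adjusted p = 0.575). LW TN 2 was the highest. Without it the 7 probes were -0.59 to -0.47, all still at an unadjusted p under 0.05, and without LW HS 3 they were -0.90 to -0.76.

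FUT2, the secretor fucosyltransferase of glycoprotein sugars, was higher on its 3 probes by 0.96, 1.14 and 1.87 (adjusted p = 0.642, 0.718 and 0.681). Averaged over the probes it read 8.62, 7.03, 7.50, 7.25 and 5.46 under TN and 8.05 to 9.22 under HS (median 8.35), so that 1 TN array, LW TN 1, lay within the HS range. On LW TN 5 the probes with differences of 1.14 and 1.87 were not well above background, so that array's average and the size of both differences are uncertain. Without LW TN 2, which was not extreme here, the probes were 0.90 to 1.84 higher and 2 of 3 kept p under 0.05.

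The remaining genes of this kind had smaller or less stable differences. BAX, the pore-forming effector of apoptosis, was 0.30 to 0.49 higher on 3 probes of 2 sequences, MAN1A1, a Golgi mannosidase, 0.31 to 0.46, and OLA1, an Obg-like ATPase, 0.23 to 0.25 on 3 spots of 1 sequence. FABP5, a fatty acid binding protein, was -0.70 to -0.66 on 4 probes, and TMSB10, an actin-binding thymosin, -0.27 to -0.25 on 3 probes of 2 sequences. None of the probes of these 5 genes kept an unadjusted p under 0.05 without LW TN 2, where BAX was 0.22 to 0.34, MAN1A1 0.22 to 0.27, OLA1 0.16 to 0.17, FABP5 -0.46 to -0.41 and TMSB10 -0.17 to -0.14. SLC30A1, the zinc exporter of the plasma membrane, was 0.21 to 0.25 higher on 3 probes of 2 sequences, and the 2 that kept p under 0.05 are 1 sequence. PM20D2, a peptidase, was 0.32 to 0.42 higher, with 1 of 3 kept, and APOD, a lipocalin carrier of lipids, was -0.82 to -0.60 on 5 probes, with 1 kept. Grouped by shared runs of at least 15 bases, the probes of FABP5, BAX and MAN1A1 fall into 2 sets each. Those of TMSB10, OLA1 and SLC30A1 form 1 set each, and those of APOD and PM20D2 3 sets each.

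**Figure D4:**
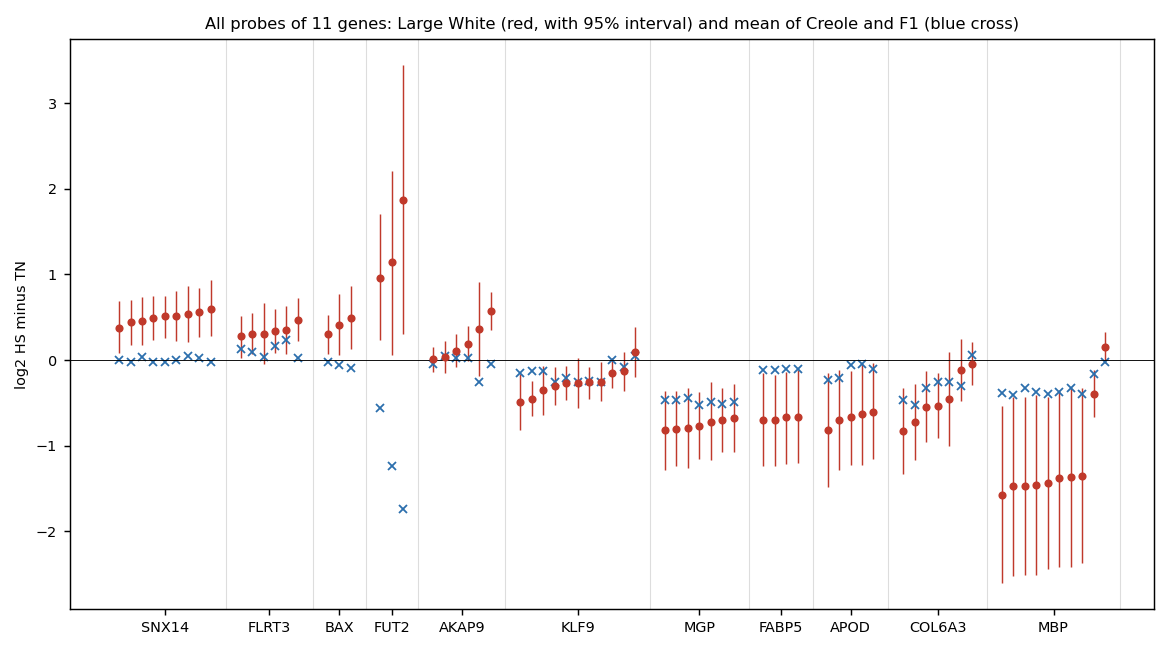
Difference between HS and TN (log2) at every probe of 11 genes, in Large White (red, bars are 95% intervals) and as the mean of Creole and F1 (blue crosses). All 9 SNX14 probes lie between 0.38 and 0.60 in Large White and between -0.02 and 0.05 in Creole and F1. The 6 AKAP9 probes run from 0.01 to 0.57.

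The difference between breeds was tested as the heat effect in Large White minus the mean heat effect in Creole and F1. No probe passed an adjusted p of 0.05 (0 of 45667, 0.00%), and 2403 had an unadjusted p under 0.05 (5.26%; 2.88% more positive and 2.38% more negative in Large White). In Creole and F1 themselves no probe passed either (0.00%), with 3477 at an unadjusted p under 0.05 (7.61%; 4.60% higher and 3.02% lower). Of the genes, 5.53% were higher and 2.89% lower at that p in Creole and F1, and 56.3% had a positive difference. Genes named above were chosen for their Large White values, which also enter this difference, so the p-values that follow describe those genes and are no independent test.

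Among the higher genes the values in Creole and F1 varied. AKAP9 probe O7964 was -0.05 ± 0.08 (SE) there, and the difference between breeds was 0.62 (95% interval 0.34 to 0.90, adjusted p = 0.921). SNX14 was -0.02 to 0.05 on its 9 probes in Creole and F1, all with an unadjusted p under 0.05 for the difference. CYP51 was -0.08 in Creole and F1, with a difference of 0.58 (adjusted p = 0.921). FUT2 went the opposite way: its 3 probes were -1.74 to -0.56 in Creole and F1, each at p under 0.05, and the differences each had an unadjusted p under 0.05. On its probe A_72_P795238 the Creole value was -0.90 and the F1 value -0.22. PDIA3 was -0.12 in Creole and F1 and 0.23 in Large White, a difference of 0.36 (adjusted p = 0.921).

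Other higher genes were also higher in Creole and F1. SIX6 was 0.26 higher there (adjusted p = 0.218), beside 0.22 in Large White. THY1 was 0.31 higher (0.52 in Creole and 0.10 in F1), and DIO2 0.18 (0.03 in Creole and 0.32 in F1). The FLRT3 probes were 0.02 to 0.24 higher there, 1 of 6 at an unadjusted p under 0.05.

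Among the lower genes the Creole and F1 values varied as well. On their named probes TTC14, ACTR8 and SLC24A3 were at 0.02, 0.01 and 0.05 there, and WWP1, NRP1 and SLC38A7 at -0.08 to -0.05. MBP probe A_72_P065001 was -0.37 there (0.06 in Creole and -0.80 in F1). Others were lower in Creole and F1 too. MGP was -0.52 to -0.44 on its 7 probes there, all at an unadjusted p under 0.05, and KLF2 was -0.47 (adjusted p = 0.194) with a breed difference of -0.05 (interval -0.41 to 0.32). CEBPD was -0.57 (adjusted p = 0.336), and COL6A3 probe A_72_P674341 was -0.47 (adjusted p = 0.473). HBB was -1.29 (adjusted p = 0.207), and the haemoglobin probe of ENSSSCT00000008741 was -1.47 (adjusted p = 0.194), with breed differences of 0.43 (interval -0.49 to 1.36) and 0.51 (interval -0.43 to 1.44). These intervals are wide, and a p above the threshold does not show that the breeds responded alike.

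KLF9 differed between its probes. Probe O14257 was -0.13 in Creole and F1 (-0.01 in Creole and -0.24 in F1), with a difference between breeds of -0.32 (interval -0.57 to -0.07, adjusted p = 0.921). On 5 other KLF9 probes the values were -0.26 to -0.21 there, each at an unadjusted p under 0.05, and -0.30 to -0.25 in Large White. Most of these probes share runs of at least 15 bases with another KLF9 probe and are not separate readings. Nearer to 0 in Creole and F1, ARNTL was -0.06, with a difference of -0.51 (interval -0.90 to -0.12, adjusted p = 0.921). CYP2C49 was -0.08, with a difference of -0.47 (adjusted p = 0.921). For OSR2, at 0.01 in Creole and F1, no breed difference is given because its Large White HS arrays were at background.

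By list, the medians in Creole and F1 stood beside those of Large White as follows. Glucocorticoid targets were at -0.21 in Creole and F1 and -0.14 in Large White, and 5 and 2 of 12 genes were lower at p under 0.05, where 2.89% and 2.22% of all genes were lower. Endothelium was at -0.20 in Creole and F1, with 7 of 18 lower at p under 0.05, and matrix at -0.19, with 9 of 25. Leukocyte genes were at -0.03 in Creole and F1 and -0.18 in Large White, and lineage factors at 0.02 and 0.17. Cytosolic heat shock genes were at 0.02 and 0.01. The difference between these medians was not tested.

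**Figure D5:**
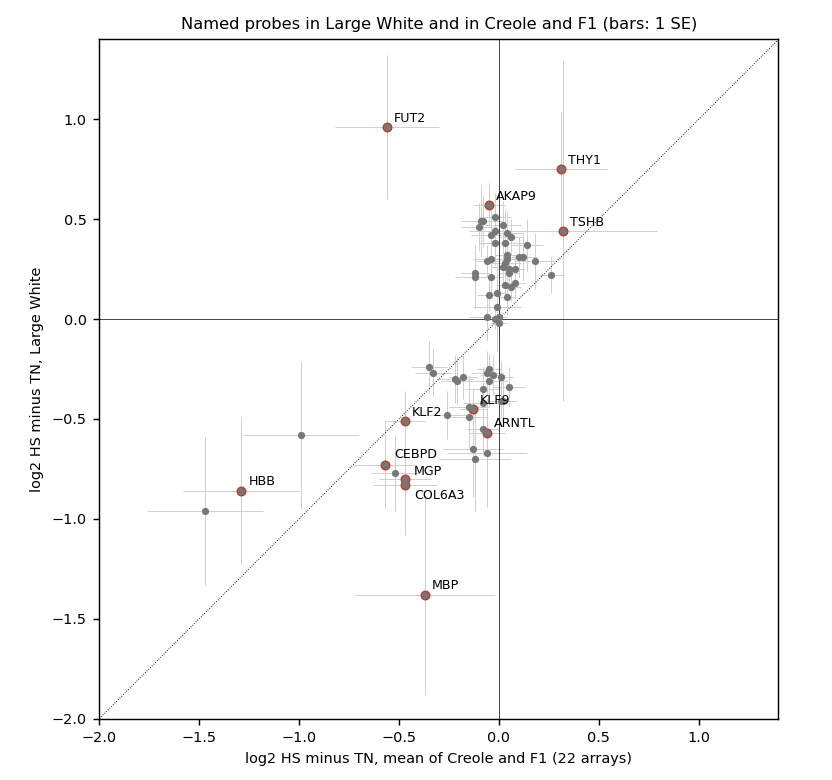
Difference between HS and TN (log2) of the named probes in Large White (vertical) and as the mean of Creole and F1 (horizontal), with bars of 1 SE; the dotted line marks equal values. AKAP9 lies at -0.05 on the horizontal axis, while HBB (-1.29 and -0.86), CEBPD (-0.57 and -0.73) and KLF2 (-0.47 and -0.51) are lower on both, and FUT2 lies on opposite sides of 0.

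The 4 probes that passed the adjusted threshold without LW TN 2 had been chosen by that result. TC548723, an expressed tag without a gene name, read 10.03, 9.84, 9.88 and 9.73 on 4 TN arrays, 11.27 on LW TN 2 and 10.65 to 11.08 on the HS arrays. Its difference was 0.73 with all arrays (adjusted p = 0.575) and 1.01 without LW TN 2 (adjusted p = 3.38e-05). VPS26B, a retromer subunit of endosomal sorting, read 10.79 to 11 on 4 TN arrays, 11.38 on LW TN 2, and 11.15 to 11.48 under HS, 0.48 higher without that array (adjusted p = 0.00736). Its 4 other probes ran from -0.03 to 0.36 with all arrays.

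Both other probes were tags without a gene name. TC575547 read 8.02, 8.28, 8.59 and 8.40 on 4 TN arrays, 6.91 on LW TN 2 and 7.16 to 7.54 under HS, -0.96 without LW TN 2 (adjusted p = 0.00146). TC614628 read 4.71 to 4.97 on 4 TN arrays, 8.27 on LW TN 2, 4.66 on LW HS 4 and 7.35 to 8.45 on the other HS arrays, 2.39 higher without LW TN 2 (adjusted p = 0.00287). The 4 TN arrays and LW HS 4 were not well above background there, and against the detection floor the difference without LW TN 2 was at least 4.07-fold. On these 4 probes LW TN 2 lay with or beyond the HS arrays, which their selection favours and which is therefore no separate observation. In Creole and F1 they differed by -0.06 to 0.05.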

How the data were processed

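Total RNA of each pituitary sample (anterior lobe, per the study's methods) was labelled with Cy3 and hybridised to a 1-colour Agilent 60-base array. The authors scanned the arrays (Agilent Feature Extraction 10.10.1.1), took the median intensity of each spot, kept 45667 of 60306 probes, and deposited log2 values after quantile normalization (preprocessCore, per the study's methods). The deposited table followed the log2 median intensity of the scanner files with a correlation of at least 0.99983 on each array. The scanner files hold intensity on a linear scale and were used for background flags and alternatives.

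Probes were named by GeneName, accession or synonym (22483 probes, 10638 symbols), and a gene list used the brightest probe of each gene. No genome was used, so positions are not given. limma 3.58.1 in R 4.3.3 fitted 6 breed by temperature means over 33 arrays, with Benjamini-Hochberg adjustment over 45667 probes. The script was tested on simulated data. Plots used Python 3.11.15.

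Named probes followed a rule: all past the adjusted threshold, the 12 higher and 12 lower symbols of smallest p without overlap between groups, genes with 3 or more probes all at p under 0.05 in 1 direction, hormones and haemoglobins, and up to 2 higher and 2 lower genes per list at p under 0.05. Others are given as members of a list or were picked after their values were seen. Members, lists and tests were chosen with earlier results of these data known. Alternatives were 3 other scalings, probe filters, slide as a block, array weights, a robust trend, Large White alone, LW HS 3 as Creole, and leaving out single arrays. For Large White and for the breed difference, only Large White arrays were left out. The number of arrays limits the precision. No 2 arrays held identical values. Some genes that the rule or the lists name are not reported here.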

Additional observations from a re-analysis of the deposited data

Results flagged for a closer look

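Among 154 groups of 5 or 6 Large White arrays at 77 named probes, 14 had an array whose gap to its neighbour exceeded Dixon's 95% value, where chance flags about 1 in 20 groups. LW TN 2 was the array in 8 of them. It read 8.55 for TSHB (other TN arrays 14.75 to 15.56), 18.20 for PRL, 14.83 for PITX1, 9.58 for COL6A3, 15.34 for MGP, 16.49 for TMSB10, 10.43 for NOS3 and 11.90 for KLF9 probe A_72_P596059. LW HS 4 was the array in 3: it read 8.42 for BAX, 8.15 for the haemoglobin list probe TC559369 and 12.45 for DIO2. LW HS 1 read 12.19 for SIX6, LW HS 3 read 9.70 for IFI44, and LW TN 5 read 7.18 for RORA. The cause of these values was not tested.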

How the results depend on the processing

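In Large White, 0 probes passed the adjusted threshold under the other scalings, filters, slide blocks and variance models. With array weights 6 passed, 4 without both LW TN 2 and LW HS 3, 4 with the slide as a fixed block and without LW TN 2, and 0 to 4 when each Large White array was left out in turn (4 without LW TN 2, 1 without LW TN 3: IK, 0.72, adjusted p = 0.00041). At an unadjusted p under 0.05, 1741 probes remained in number without both arrays, against 3104, and 2250 to 3985 when each Large White array was left out. For Large White minus Creole and F1, 1 probe passed with array weights, 1 without both arrays, 2 with the slide block and without LW TN 2, and 0 to 1 when each Large White array was left out. Unadjusted counts were 4566 with array weights, 1278 with LW HS 3 as Creole and 1740 to 3294 when each Large White array was left out, against 2403. No Creole or F1 array was left out for this difference. In Creole and F1, leaving out each array gave 0 to 1 past the adjusted threshold (1 without CR TN 2) and 2811 to 5045 at an unadjusted p under 0.05. Of the list medians, 391 of the values under alternatives moved by less than the spread between arrays and 8 by more. For the named probes these numbers were 2223 and 154, and 19 passed the adjusted threshold. The fit without both arrays and the slide block without LW TN 2 were chosen after seeing the data. The cause of each change was not tested. Quantile normalization fixes the top of the scale, and probes near background give only bounds. No analysis paired by replicate number was possible because the labels carry none, and the numbers used here only name arrays. Arrays of both groups shared 4 slides, and the slide served as a block instead.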

Other observations

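The tag ES447095, picked after its values were seen, read 7.0 to 7.03 on 4 TN arrays, 5.74 on LW TN 2 and 5.78 to 6.08 on the HS arrays. Its difference was -0.79 with all arrays and its adjusted p with array weights was 0.0205. IK, a splicing factor, read 10.21, 10.03, 10.37 and 10.48 on 4 TN arrays, 11.01 on LW TN 3 and 10.64 to 11.13 on the HS arrays, 0.57 higher with all arrays (adjusted p = 0.338), and its 2 other probes were at -0.05 and 0.11. LW TN 2 also read high for ADM, the vasodilator adrenomedullin (13.84, other TN arrays 11.03 to 11.90), for SLC4A4, a bicarbonate transporter (10.62, others 7.90 to 8.50), for CRYM, a thyroid hormone binding protein (10.59, others 7.59 to 8.02), and for PDK4, a brake on pyruvate oxidation (14.49, others 11.79 to 12.96).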
